A study of Mus musculus with 13 samples.

Results

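The FGF ligands and receptors described here are 10 genes, Fgf4, Fgf5, Fgf8, Fgf10, Fgf15, Fgf17, Fgfr1, Fgfr2, Fgfr3 and Fgfr4, found by symbol among the 20325 genes of the deposited gene tables. They comprise 6 ligands and all 4 signalling receptors of the family. The RNA of these genes was counted, from single-end reads, in mouse pre-iPSCs. These cells were derived from embryonic fibroblasts (MEFs) and stalled on the way to induced pluripotency. Wild-type (WT) cells were compared with cells knocked out (KO) for Kdm3b, which encodes a histone H3 lysine 9 demethylase, before AA+2i and on days 2 and 10 of it. AA+2i is ascorbic acid at 50 µg/mL with CHIR-99021, an inhibitor of GSK3, and PD-0325901, an inhibitor of the ERK-activating kinase MEK. All cells were kept in medium with 15% fetal bovine serum and leukaemia inhibitory factor. Each of the 6 groups held 2 libraries, lettered A and B, and 1 further library came from V6.5 mouse embryonic stem cells (ESCs), which are wild type.

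The day 0 libraries are titled DMSO, the solvent, while their treatment label names AA+2i, and they are read here as the untreated start. The ESC library carries the same treatment label with the time 0hr, so what it received cannot be read from them. Separate cultures for A and B are not stated either, so p-values measure the spread between these libraries, which may be technical. The labels name neither the KO allele nor the number of clones behind either genotype. No untreated cells were sampled at day 10, so the treatment cannot be told apart from time in culture.

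FGF ligands are secreted proteins that bind receptor tyrosine kinases together with heparan sulfate, and the bound receptors recruit adaptors that switch on the RAS-ERK cascade. ERK in turn induces its own feedback inhibitors, the Sprouty, Spred and Dusp genes, and the Etv transcription factors. In the mouse blastocyst and in ESCs, Fgf4 is the ligand made by naive pluripotent cells, and FGF-ERK signalling pushes these cells toward primitive endoderm or toward lineage commitment. Inhibition of MEK blocks that step and is part of the medium that holds ESCs in the naive state.

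Library totals ran from 14891294 to 26430050 expected counts. Levels are given as CPM, counts scaled to a common library total. Where genes are compared with each other they are given as TPM, which is also scaled by transcript length. Kdm3b read 146 to 261 CPM in WT libraries and 17.7 to 65.5 CPM in KO libraries, lower in KO at every day (log2 fold change -1.98, -2.71 and -2.67 at days 0, 2 and 10, edgeR adjusted p = 0.0132, 0.00302 and 0.00121). The A and B libraries of days 0 and 2 differed in the same way in all 4 groups, with long transcripts higher in B. At day 10 A and B did not share that difference. Values within days 0 and 2 are therefore also given from a fit with the letter as a covariate for those days, called the blocked fit. Values for day 10 are given from it too. For these the blocked fit takes the spread mainly from days 0 and 2, once the letter is removed there. A gene was called changed at an adjusted p under 0.05 over the 14324 genes tested. In bulk RNA, fewer cells of a type and less RNA per cell cannot be told apart.

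The promoters of Fgf4, Fgf10, Fgfr2 and Fgfr4 are shown because these genes rose together in WT cells by day 10. Fgf17, the other member called there, had no entry in the promoter table. Each window runs from 250 bases before to 50 bases after the annotated start, 5′ to 3′ on the gene's strand, from RefSeq on GRCm38.p6. The counts were made on mm9, so these positions are not those of the count tables. Capitals mark matches, on either strand, to the GC box GGGCGG, the TATA box TATAAA, the octamer ATGCAAAT bound by POU factors, the SOX core CATTGT, the CCAAT box CCAAT and the E-box CACGTG.
Fgf4 promoter, chr7:144861136-144861435, plus strand: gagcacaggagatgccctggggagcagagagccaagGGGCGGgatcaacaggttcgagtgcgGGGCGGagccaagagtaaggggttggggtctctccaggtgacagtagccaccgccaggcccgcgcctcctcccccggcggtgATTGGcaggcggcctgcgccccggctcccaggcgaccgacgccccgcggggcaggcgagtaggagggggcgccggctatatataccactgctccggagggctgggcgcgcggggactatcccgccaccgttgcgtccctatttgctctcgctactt
Fgf10 promoter, chr13:118714449-118714748, plus strand: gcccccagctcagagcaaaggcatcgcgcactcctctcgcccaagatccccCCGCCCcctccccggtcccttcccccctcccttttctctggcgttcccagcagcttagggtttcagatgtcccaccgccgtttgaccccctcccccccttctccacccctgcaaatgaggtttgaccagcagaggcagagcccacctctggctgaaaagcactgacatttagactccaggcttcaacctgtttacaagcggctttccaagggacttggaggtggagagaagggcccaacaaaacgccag
Fgfr2 promoter, chr7:130266759-130267058, minus strand: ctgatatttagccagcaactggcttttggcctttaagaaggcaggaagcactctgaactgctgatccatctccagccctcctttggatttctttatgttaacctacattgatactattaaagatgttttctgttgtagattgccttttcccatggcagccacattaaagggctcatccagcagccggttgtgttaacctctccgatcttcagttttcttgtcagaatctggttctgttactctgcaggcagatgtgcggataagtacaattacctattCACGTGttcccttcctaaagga
Fgfr4 promoter, chr13:55152568-55152867, plus strand: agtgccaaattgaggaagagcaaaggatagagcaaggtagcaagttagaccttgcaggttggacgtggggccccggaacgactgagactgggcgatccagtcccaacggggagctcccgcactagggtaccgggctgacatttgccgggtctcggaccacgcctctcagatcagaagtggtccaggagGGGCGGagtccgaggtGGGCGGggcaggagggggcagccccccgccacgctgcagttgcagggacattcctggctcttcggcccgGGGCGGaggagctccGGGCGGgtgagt
The Fgf4, Fgf10 and Fgfr4 windows were rich in G and C (69.7%, 60.7% and 65.3%, with 28, 10 and 20 CpG dinucleotides), above the median of 52.7% GC and 7 CpG over 32851 promoters of the same length. The Fgfr2 window had 43.7% GC and 4 CpG. GC boxes stood in the Fgf4, Fgf10 and Fgfr4 windows (2, 1 and 4 matches) and in 35.7% of all promoters. The Fgf4 window also held 1 CCAAT box, as did 37.4% of all promoters, and the Fgfr2 window 1 E-box, found in 7.15%. None of the 4 windows held the octamer (1.74% of all promoters), the SOX core (12.6%) or the TATA letters (13.6%), which says only that these letters are not in the windows. Of the 10 members, 6 matched the promoter table.

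Fgf4 was by far the most abundant ligand in every library, and it separated the genotypes at day 10. In WT cells it read 92.0 and 111 CPM at day 0 in libraries A and B, 49.0 and 63.3 CPM at day 2, and 269 and 314 CPM at day 10. In KO cells it read 95.7 and 144 CPM at day 0, 29.1 and 42.8 CPM at day 2, and 50.1 and 57.5 CPM at day 10. The ESC library held 197 CPM, between the WT day 10 libraries and all others. At days 0 and 2 the genotypes' libraries lay close together, overlapping at day 0. At day 10 both WT libraries were above and both KO libraries below every day 0 library.

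Fgf4 moved in opposite directions in the 2 genotypes over 10 days. From day 0 to day 2 it fell in KO cells (log2 fold change -1.75 ± 0.23 SE, n = 2 libraries a group, edgeR adjusted p = 0.00273). Fgf4 was the 1 member of 10 called there, against 6.39% of all genes called and 2.37% called lower. In WT cells the change was -0.89 ± 0.22 (adjusted p = 0.0565), which was not called, while the blocked fit gave -0.90 ± 0.12 (adjusted p = 4.34e-05). From day 0 to day 10 Fgf4 rose in WT by 1.46 ± 0.23 (adjusted p = 0.00129) and fell in KO by 1.21 ± 0.22 on the log2 scale (adjusted p = 0.00776). The KO fall was not called without KO day 0 library B (adjusted p = 0.0689) or without either KO day 10 library (0.0996 and 0.0592). Between days 2 and 10 it rose 2.36 ± 0.23 in WT (adjusted p = 0.000224), whereas the KO value was 0.54 ± 0.22 (adjusted p = 0.242), and 0.56 ± 0.12 in the blocked fit (adjusted p = 0.00285). With only the 4 KO libraries of days 0 and 2 in the fit, the KO change by day 2 was -1.75 and not called (adjusted p = 0.142), and that fit called 0 of all genes.

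The genotype difference in Fgf4 at day 10 was -2.39 ± 0.23 on the log2 scale (KO against WT, adjusted p = 0.000196), with means of 53.8 ± 5.25 CPM in KO and 291 ± 31.9 CPM in WT (SD, n = 2). At day 0 it was 0.28 ± 0.22 (adjusted p = 0.656). At day 2 it was -0.58 ± 0.22 (adjusted p = 0.161), and the blocked fit gave -0.58 ± 0.12 (adjusted p = 0.00144). The day 10 response itself differed between genotypes, by -2.67 ± 0.32 (interaction, adjusted p = 0.00135). Fgf4 was the 1 member called in that interaction, against 12.6% of all genes called and 6.2% called lower.

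**Figure D1:**
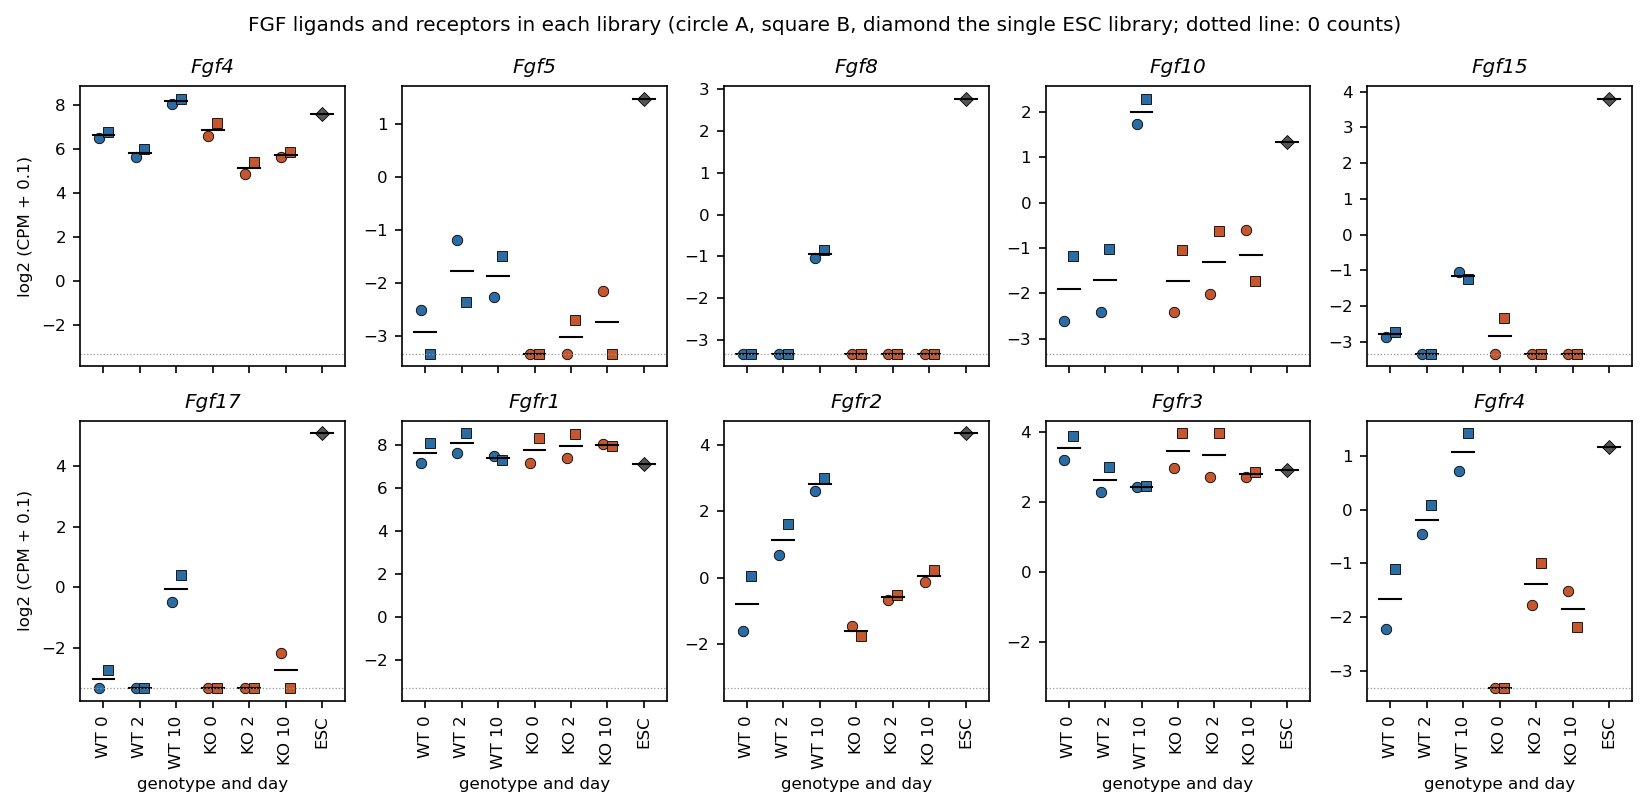
Level of each FGF member in every library, as log2 of CPM plus 0.1, by genotype and day. Circles are A, squares B, diamonds the ESC library, bars group means, and the dotted line a count of 0. Fgf4, Fgf10, Fgfr2 and Fgfr4 sit higher in both WT day 10 libraries than in any KO library.

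Fgf10, a ligand that in the embryo is made by mesenchyme and signals to epithelium through the b form of FGFR2, was near its detection limit except in WT cells at day 10 and in ESCs. It read 0.06 and 0.34 CPM at day 0 in WT, 0.09 and 0.39 CPM at day 2, and 3.20 and 4.78 CPM at day 10. In KO it read 0.09 and 0.38 CPM at day 0, 0.15 and 0.54 CPM at day 2, and 0.56 and 0.20 CPM at day 10, and the ESC library 2.42 CPM. The WT day 10 libraries did not overlap any other pre-iPSC library. Fgf10 rose in WT by day 10 (4.19 ± 0.84, adjusted p = 0.00479) and was lower in KO than in WT at day 10 (-3.36 ± 0.81, adjusted p = 0.0122). The latter was not called without KO day 10 library B (adjusted p = 0.114) or WT day 10 library B (0.074). In WT it was also higher at day 10 than at day 2 (4.00 ± 0.83, adjusted p = 0.00693), but not called without WT day 2 library A (0.0565). In KO, day 10 against day 0 gave 0.57 ± 0.99 (adjusted p = 0.785). The interaction of -3.62 ± 1.34 was not called (adjusted p = 0.120), and the blocked fit gave -3.56 ± 0.87 (adjusted p = 0.00437). At days 0 and 2 Fgf10 rests on 1.67 to 8.15 expected counts a library. Library B read 3.64 to 5.43 times library A in the groups of those days. That difference was on average larger than that of 97.2% of the genes tested.

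Fgf17, Fgf8 and Fgf15 belong to the ligands that pattern the gastrulating embryo and the brain, apart from the later role of Fgf15 as an intestinal hormone. They appeared at low levels in WT cells at day 10 and were abundant in the ESC library. Fgf17 had 11 and 19 counts in the WT day 10 libraries, 674 in the ESC library, 2 in KO day 10 library A, 1 in WT day 0 library B, and 0 elsewhere. Fgf8 had 7 counts in each WT day 10 library, 135 in ESCs and 0 in every other library. Fgf15 had 7 and 5 counts in WT at day 10, 278 in ESCs and at most 2 elsewhere.

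Fgf17 passed the filter on low counts only through its WT day 10 libraries. Over the group it was 40.8-fold higher at day 10 than at day 0 in WT (95% exact counting interval 6.78 to 1664, 30 counts against 1). It was 12.3-fold higher than at day 2, with the 0 counts there set to a floor of 3. KO held 0.0689 of the WT level at day 10 (interval 0.00798 to 0.272, 2 counts against 30). edgeR called these differences (adjusted p = 0.0196, 0.0164 and 0.0426), but DESeq2 called none of them (adjusted p = 0.230, 0.123 and 0.393). The first was also not called without WT day 0 library A, WT day 0 library B or WT day 10 library A (adjusted p = 0.107, 0.0542 and 0.0554). The second was not called without either WT day 2 library or WT day 10 library A (0.0595, 0.0667 and 0.0505). The third was lost without either WT day 0 library (0.0564 and 0.0572), WT day 10 library A (0.0944) or either KO day 10 library (0.0737 and 0.186). Without WT day 10 library B, Fgf17 was below the filter. Fgf8 and Fgf15 were below the filter. Against a floor of 3 counts over a group, Fgf8 was 6.35-fold higher at day 10 than at day 0 in WT and 4.52-fold lower in KO than in WT at day 10. Fgf15 was 4.93-fold higher at day 10 than at day 2 in WT and 3.87-fold lower in KO than in WT at day 10. The floor leaves out the counting error of the group that is not at 0, so these folds are not lower bounds. The intervals cover counting error only.

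Fgf5, a ligand that marks the primed epiblast as naive cells leave their ground state, was the least abundant ligand of the ESC library but one, by TPM. It read 54 counts (2.69 CPM) in ESCs. In WT it had 2 and 0 counts on day 0, then 7 and 2 counts on day 2 and 2 and 4 counts on day 10. It had no more than 2 in any KO library. It was below the filter and was not tested.

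Per length, Fgf4 made up 97.6 to 99.9% of the summed TPM of the 6 ligands in every pre-iPSC library. In the ESC library its share was 64.4%, with Fgf17 at 20.0%, Fgf15 at 7.70% and Fgf8 at 6.26%. The summed ligand level in WT at day 10 (175 and 202 TPM) was above that of ESCs (166 TPM), whereas KO at day 10 held 31.6 and 35.3 TPM. The comparison with ESCs covers these 6 ligands only and rests on 1 ESC library.

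**Figure D2:**
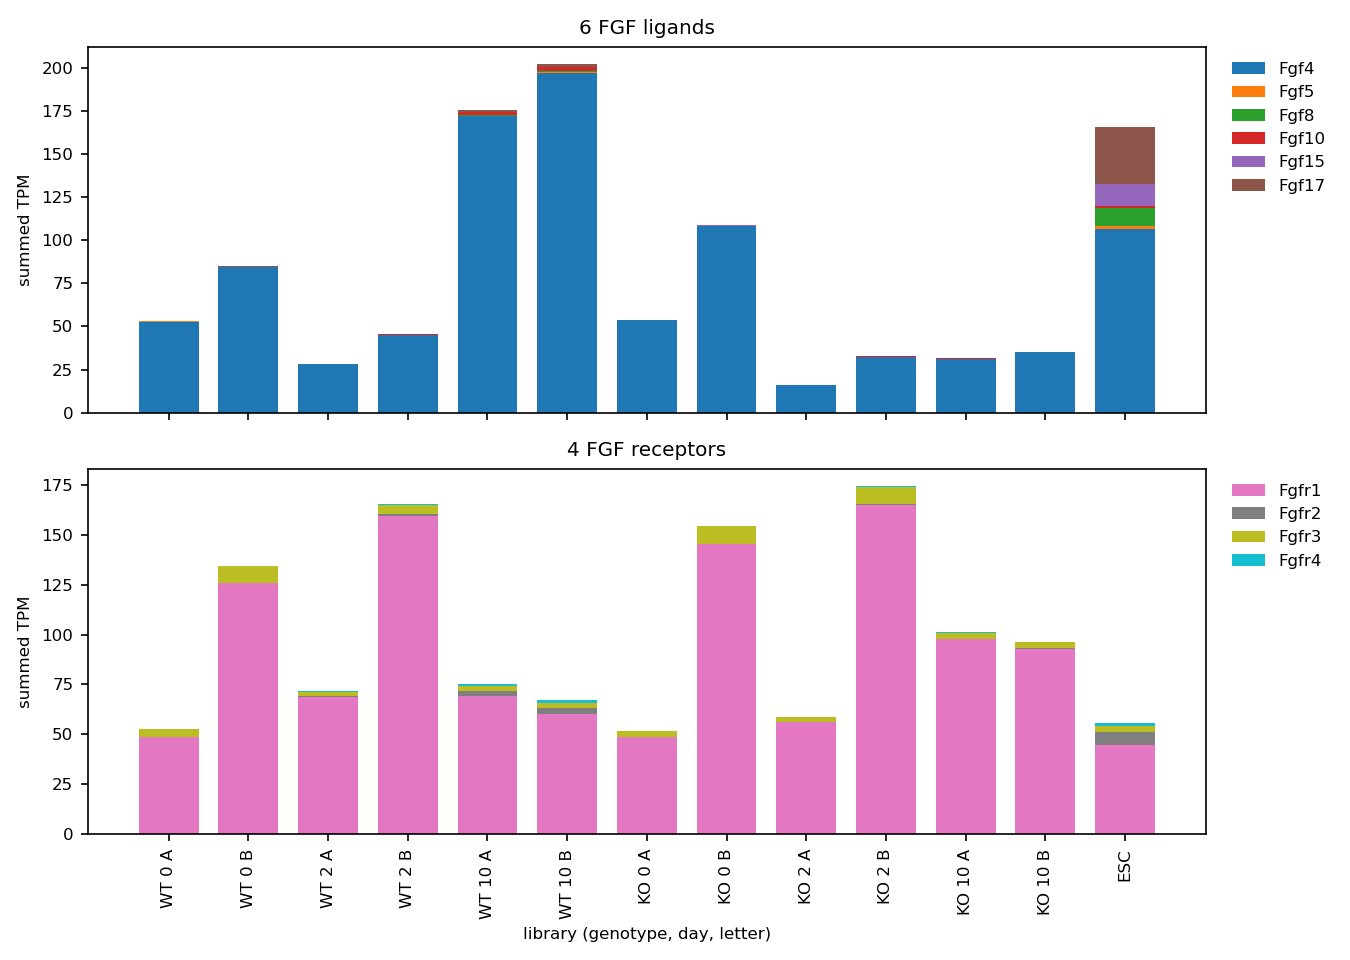
Summed TPM of the 6 ligands (top) and the 4 receptors (bottom) in every library, stacked by gene. Fgf4 fills at least 97.6% of every pre-iPSC ligand bar against 64.4% in ESCs, and Fgfr1 at least 89.4% of every pre-iPSC receptor bar against 80.8% in ESCs.

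Among the receptors, Fgfr1, the main receptor of fibroblasts and of ESCs, dominated every library. It made up 89.4 to 96.6% of the summed receptor TPM in pre-iPSCs and 80.8% in ESCs. WT libraries read 139.7 and 273 CPM at day 0, 198 and 369.6 CPM at day 2, and 179 and 158 CPM at day 10. KO libraries read 143 and 318 CPM at day 0, 169 and 360.1 CPM at day 2, and 258 and 248 CPM at day 10, and ESCs 137 CPM. At days 0 and 2 library B was 1.87 to 2.23 times library A in all 4 groups, so groups overlapped widely. At day 10 library B was 0.884 and 0.962 times library A in WT and KO, and both KO libraries were above both WT libraries.

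Fgfr1 was called in no comparison by the fit without the block. KO against WT at day 10 gave 0.64 ± 0.46 (adjusted p = 0.343), and 0.64 ± 0.10 in the blocked fit (adjusted p = 8.53e-05). In WT, day 2 against day 0 gave 0.43 ± 0.46 (adjusted p = 0.801), and the blocked fit 0.43 ± 0.10 (adjusted p = 0.00503), since within each letter day 2 was the higher. Day 10 against day 2 in WT gave -0.76 ± 0.46 (adjusted p = 0.260), and -0.71 ± 0.10 in the blocked fit (adjusted p = 3.33e-05). Day 10 against day 0 in WT gave -0.33 ± 0.46 (adjusted p = 0.632), and -0.28 ± 0.10 in the blocked fit (adjusted p = 0.0277). The day 10 interaction of 0.43 ± 0.64 (adjusted p = 0.785) was 0.46 ± 0.14 in the blocked fit (adjusted p = 0.0184). In these day 10 values the blocked fit takes the spread mainly from days 0 and 2, once the letter is removed there. The B over A difference of Fgfr1 at days 0 and 2 was larger than that of 89.5% of the genes tested, and its transcripts of about 4922 to 4994 bases are long. Whether transcript length accounts for that difference was not tested for this gene alone.

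Fgfr2, a receptor of epithelia and of trophoblast, was higher in WT at day 10 than at the earlier days, and lower in KO than in WT at day 10. WT libraries read 0.23 and 0.93 CPM at day 0, 1.5 and 2.99 CPM at day 2, and 6.04 and 7.95 CPM at day 10. KO libraries read 0.27 and 0.20 CPM at day 0, 0.53 and 0.60 CPM at day 2, and 0.81 and 1.09 CPM at day 10. The ESC library held 20.4 CPM, above all others. WT groups did not overlap between days, nor did KO groups, and at days 2 and 10 every WT library was above every KO library.

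In WT, Fgfr2 was 3.60 ± 0.55 higher at day 10 than at day 0 on the log2 scale (adjusted p = 0.00122) and 1.63 ± 0.48 higher than at day 2 (adjusted p = 0.0327). The latter was lost when any of 6 libraries was left out, namely those of WT days 2 and 10 and KO day 10 (adjusted p up to 0.193). Day 2 against day 0 gave 1.97 ± 0.55 (adjusted p = 0.0798), and the blocked fit 1.99 ± 0.39 (adjusted p = 0.00146). In KO, day 10 against day 0 gave 1.92 ± 0.65 (adjusted p = 0.0862), which was not called, and 1.95 ± 0.55 in the blocked fit (adjusted p = 0.00956). The single steps in KO, over 10, 20 and 31 counts, were called in neither fit: 1.22 ± 0.69 to day 2 (adjusted p = 0.448) and 0.70 ± 0.60 from there to day 10 (adjusted p = 0.593). KO was lower than WT at day 10 (-2.82 ± 0.53, adjusted p = 0.00385). At day 2 it gave -1.90 ± 0.56 (adjusted p = 0.0670), and the blocked fit -1.83 ± 0.41 (adjusted p = 0.00266). At day 0 the difference was -1.14 ± 0.67 (adjusted p = 0.461), and the day 10 interaction was -1.68 ± 0.89 (adjusted p = 0.284). A difference between genotypes in the day 10 response of Fgfr2 was therefore not shown, with or without the block (blocked adjusted p = 0.0770). The tables merge both Fgfr2 transcripts into a single value, so its b and c splice forms were not distinguished.

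Fgfr4, a receptor of endoderm and liver, read lower than Fgfr2 per length in the WT day 10 and ESC libraries, and its genotypes did not overlap on any day. In WT it read 0.11 and 0.36 CPM at day 0, 0.63 and 0.97 CPM at day 2, and 1.54 and 2.59 CPM at day 10. In KO it had 0 counts in both day 0 libraries, then 0.19 and 0.40 CPM at day 2 and 0.25 and 0.12 CPM at day 10, and the ESC library read 2.14 CPM. WT day 10 libraries were on both sides of the ESC level and did not overlap any other pre-iPSC group. Fgfr4 rose in WT by day 10 (3.10 ± 0.59, adjusted p = 0.00481), and was lower in KO than in WT at day 10 (-3.38 ± 0.63, adjusted p = 0.00516). The KO difference was not called without KO day 10 library B (adjusted p = 0.0587). Pooled over libraries, KO held 0.0912 of the WT level at day 10 (95% exact counting interval 0.0323 to 0.209, 6 counts against 68). The day 10 interaction of 1.77 ± 1.34 was not called (edgeR adjusted p = 0.494), nor was it in the blocked fit (adjusted p = 0.358). A difference between genotypes in the day 10 response of Fgfr4 was therefore not shown.

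At day 0 the 0 counts of Fgfr4 in KO, set to the floor of 3 counts over the group, put it 3.10-fold below WT, which had 10 counts. That difference was not called (adjusted p = 0.0681) but passed in the blocked fit (adjusted p = 0.0188). In KO, Fgfr4 at day 2 was 3.96-fold above the same floor at day 0 (10 counts), with an adjusted p of 0.0591, and 0.0117 in the blocked fit. WT day 2 against day 0 gave 1.76 ± 0.61 (adjusted p = 0.171), and 1.75 ± 0.54 in the blocked fit (adjusted p = 0.0269). WT day 10 against day 2 gave 1.34 ± 0.51 (adjusted p = 0.0859), and 1.38 ± 0.39 in the blocked fit (adjusted p = 0.00711). KO at day 10 held 6 counts, 2.61-fold above the floor at day 0 (adjusted p = 0.0686, and 0.0240 in the blocked fit). Folds against the floor are not lower bounds.

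Fgfr3, a receptor best known as a brake on bone growth, read lower in WT after day 0. WT libraries read 9.18 and 14.6 CPM at day 0, 4.74 and 7.93 CPM at day 2, and 5.23 and 5.37 CPM at day 10. KO libraries read 7.73 and 15.5 CPM at day 0, 6.43 and 15.4 CPM at day 2, and 6.5 and 7.15 CPM at day 10, and ESCs 7.49 CPM. WT days 2 and 10 lay below day 0 without overlap, while KO day 2 overlapped KO day 0. In the edgeR fit of all 12 libraries without the block, no comparison of Fgfr3 was called. WT day 10 against day 0 gave -1.21 ± 0.44 (adjusted p = 0.0615), and -1.19 ± 0.18 in the blocked fit (adjusted p = 4.70e-05). With 1 library left out, that unblocked change ran from -1.48 to -0.92. KO at day 10 gave -0.81 ± 0.43 against day 0 (adjusted p = 0.267) and -0.70 ± 0.43 against day 2 (adjusted p = 0.443), and in the blocked fit -0.75 ± 0.18 (0.00317) and -0.61 ± 0.18 (0.0164). In the blocked fit, WT day 2 was lower than day 0 (-0.96 ± 0.17, adjusted p = 0.000851) and KO was higher than WT at day 2 (0.80 ± 0.18, adjusted p = 0.00275). The day 2 interaction gave 0.83 ± 0.60 (adjusted p = 1), and 0.83 ± 0.24 in the blocked fit (adjusted p = 0.0537).

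By TPM the order of receptors was Fgfr1, then Fgfr3, then Fgfr2 and Fgfr4 at days 0 and 2 and in KO at day 10. In WT at day 10 Fgfr2 (2.33 and 3.02 TPM) and Fgfr3 (2.49 and 2.56 TPM) did not differ beyond their spread, with Fgfr4 below both (0.95 and 1.57 TPM). In the ESC library Fgfr2 (6.49 TPM) stood above Fgfr3 (3.06 TPM) and Fgfr4 (1.12 TPM). At days 0 and 2 Fgfr2 and Fgfr4 libraries overlapped in WT, as they did in KO at day 2. Fgfr2 supplied 3.10 and 4.49% of the receptor TPM in WT at day 10, 0.287 and 0.426% in KO at day 10, and 11.7% in ESCs.

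**Figure D3:**
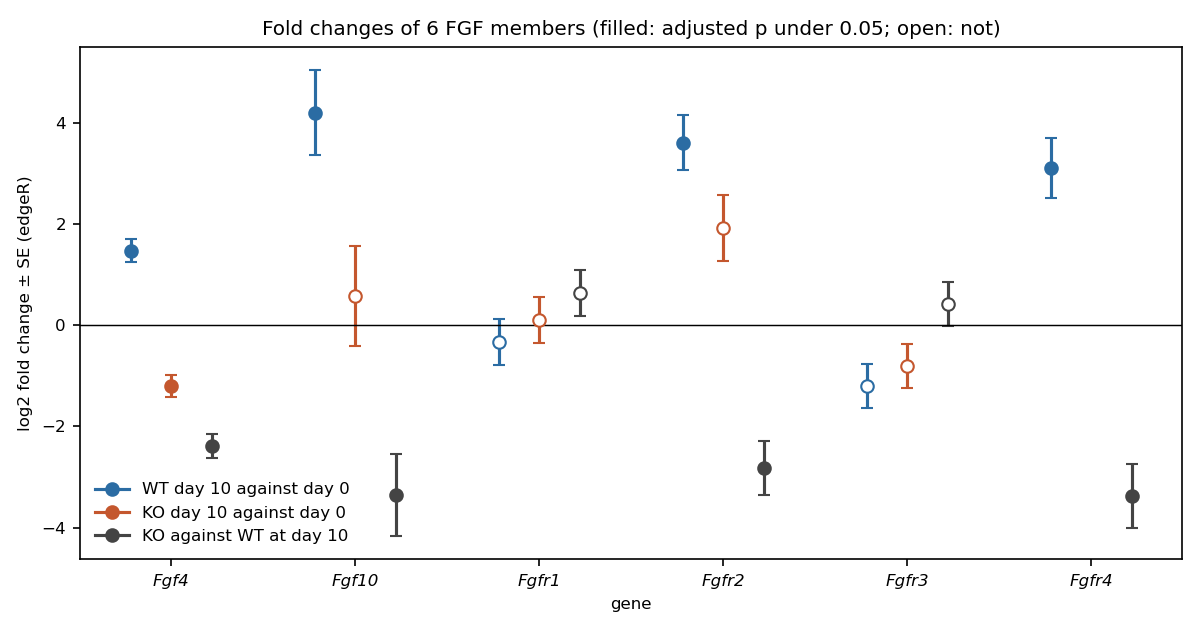
Log2 fold change with its standard error (edgeR) of 6 tested members in 3 comparisons, filled where the adjusted p was under 0.05. Fgf4 rose 1.46 in WT and fell by 1.21 in KO; Fgf10, Fgfr2 and Fgfr4 are filled in WT and in KO against WT. Fgf17 and the KO change of Fgfr4 rest on groups with 0 or 1 counts and are not drawn.

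Counted over comparisons, 7 of the 10 members could be tested, and Fgf5, Fgf8 and Fgf15 could not. In WT, day 10 against day 0 called 5 members, all higher, against 34.1% of all genes called and 21% called higher. Day 10 against day 2 called 4 members in WT (Fgf4, Fgf10, Fgf17 and Fgfr2), all higher, against 29.5% of all genes called and 18.3% called higher. That count was 1 without WT day 2 library A and 2 without WT day 2 library B or either WT day 10 library. KO against WT at day 10 called 5 members, all lower (Fgf4, Fgf10, Fgf17, Fgfr2 and Fgfr4), against 32.3% of all genes called and 19.9% called lower. It was 3 without WT day 10 library B and 2 without KO day 10 library B. KO at day 10 against day 0 called 1 member, Fgf4, which fell, against 15.1% of all genes called and 5.19% called lower. It was 0 without KO day 0 library B or either KO day 10 library, and 2 without either WT day 0 library. Since low-count members enter the test mainly through WT day 10, these counts are a description and not independent support. Both WT comparisons with day 10 and the KO against WT comparison share the same WT day 10 libraries.

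Several comparisons called none of the members in edgeR. In WT, day 2 against day 0 called 0 (3 at an unadjusted p under 0.05), against 5.3% of all genes, and DESeq2 called 2, against 9.62%. KO day 10 against day 2 called 0 (1 unadjusted), against 3.1% of all genes, and DESeq2 called 0, against 9.79%. KO against WT at day 0 called 0 (1 unadjusted), against 8.29% of all genes, and DESeq2 called 1, against 11.9%. At day 2 it called 0 (2 unadjusted; 1 without either WT day 0 library), against 10.5% of all genes, and DESeq2 called 1, against 14.5%. The day 2 interaction called 0 (2 unadjusted), against 0.195% of all genes, and DESeq2 called 0, against 1.58%.

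The blocked fit called more members and more genes of all kinds. Within days 0 and 2 it called 5 in WT (Fgfr1, Fgfr2 and Fgfr4 higher and Fgf4 and Fgfr3 lower at day 2, against 30.1% of all genes) and 2 in KO (Fgf4 and Fgfr4, against 29.5%). It called 1 member in KO against WT at day 0, Fgfr4, against 30.4% of all genes, and 3 at day 2, Fgf4, Fgfr2 and Fgfr3, against 36.7%. In the day 2 interaction it called 1, Fgf4 (-0.85 ± 0.16, adjusted p = 0.00541), against 7.74%. Day 10 against day 0 gave 7 calls in WT, against 65.7% of all genes, and 4 in KO, against 47.8%. Day 10 against day 2 gave 6 in WT, against 62.7%, and 2 in KO, Fgf4 and Fgfr3, against 37.2%. KO against WT at day 10 gave 6, with Fgfr1 added as the 1 higher in KO, against 63.8%. The day 10 interaction gave 3, Fgf4, Fgf10 and Fgfr1, against 44.6%. The members' share was thus near or below that of all genes in several of these comparisons.

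Of the 16 other FGF ligands in the tables, 5 were abundant enough to test. Fgf3, the chromosomal neighbour of Fgf4 in the RefSeq annotation, behaved like Fgf17, Fgf8 and Fgf15 among the pre-iPSC libraries. Unlike them, it read lower in ESCs than in WT at day 10. It read 2.70 and 2.39 CPM in WT at day 10, 0.19 and 0.24 CPM in KO at day 10, at most 0.05 CPM in every library of days 0 and 2, and 0.80 CPM in ESCs. It was higher at day 10 than at day 0 in WT (6.42 ± 0.71, adjusted p = 0.000411) and lower in KO than in WT at day 10 (-3.48 ± 0.54, adjusted p = 0.00236). Fgf3 held 86 counts in WT at day 10, 1 in WT at day 0 and 7 in KO at day 10. Like Fgf17, it passed the filter on low counts only through WT day 10. Its 2 test results are therefore a description and not independent support. Fgf15, the neighbour on the other side of Fgf4, held 12 counts in WT at day 10 and 0 in KO at day 10. Fgf1, a ligand that binds all FGF receptors, was higher in KO than in WT at day 0, at 7.49 and 10.2 CPM against 1.55 and 1.36 CPM (2.64 ± 0.32, adjusted p = 0.00156). Fgf1 then fell in KO by day 2 (-2.80 ± 0.33, adjusted p = 0.00170), to 1.20 and 1.36 CPM, and fell in WT by day 10 (-1.97 ± 0.39, adjusted p = 0.00446). Fgf13, an intracellular relative that is not secreted, rose in WT by day 10 (1.19 ± 0.35, adjusted p = 0.0287).

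All 24 co-receptors and binding proteins on the list were tested, and calls went in both directions. In WT at day 10 against day 0, 5 rose and 5 fell, against 21% of all genes called higher and 13.1% called lower, with a median log2 change of -0.47 against -0.03 over all genes. The blocked fit called 7 higher and 12 lower there, against 65.7% of all genes called. The risers included Gpc3, a heparan sulfate glypican (2.85 ± 0.50, adjusted p = 0.00237). The heparan sulfate syndecan Sdc3 rose from 0.76 and 1.40 CPM to 11.2 and 11.4 CPM. Those that fell included Flrt2, a membrane protein that binds FGF receptors (-3.38 ± 0.39, adjusted p = 0.000309), and Ext1, a heparan sulfate polymerase (-1.78 ± 0.21, adjusted p = 0.000381). In KO at day 10 against day 0, 1 rose (Hs6st1) and 2 fell (Flrt2 and Ext1), against 9.93 and 5.19% of all genes. There the blocked fit called 4 higher and 5 lower, against 47.8% of all genes called. KO against WT at day 10 called 8 higher and 5 lower, against 12.4 and 19.9% of all genes. Ext1 (1.51 ± 0.21, adjusted p = 0.00104) and the glypican Gpc6 (3.24 ± 0.46, adjusted p = 0.00106) were higher in KO. Gpc3 (-3.72 ± 0.52, adjusted p = 0.00102) and Sdc3 (-3.22 ± 0.67, adjusted p = 0.00665) were lower. Klb, the co-receptor of the hormone-like ligands such as Fgf15, read 1.98 and 2.13 CPM in WT at day 10, 0.31 and 0.12 CPM in KO at day 10, and 0 in ESCs.

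Of the 19 adaptors and RAS-ERK cascade genes, all were tested. In WT at day 10 against day 0, 4 rose (Gab1, Frs3, Grb2 and Map2k1) and 1 fell (Ptpn11), with a median log2 change of -0.06, against 34.1% of all genes called. The blocked fit called 5 higher and 6 lower, against 65.7% of all genes. Gab1, a docking protein downstream of receptor tyrosine kinases, read 21.9 and 26.0 CPM in WT at day 0, 203 and 187 CPM at day 10, and 248 CPM in ESCs. In KO it read 22.2 and 25.5 CPM at day 0 and 58.0 and 51.9 CPM at day 10. Gab1 rose in both genotypes (2.97 ± 0.15 in WT, adjusted p = 2.02e-05, and 1.14 ± 0.14 in KO, adjusted p = 0.00110), and the rise differed between them (interaction -1.82 ± 0.20, adjusted p = 0.000921). Frs3, a scaffold that docks on FGF receptors, was higher in WT at day 10 than at day 0 (1.36 ± 0.28, adjusted p = 0.00540) and lower in KO than in WT at day 10 (-1.23 ± 0.28, adjusted p = 0.00943). The phosphatase gene Ptpn11 was higher in KO than in WT at day 10 (1.06 ± 0.17, adjusted p = 0.00192).

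Between 8 and 12 of the 18 ERK feedback and target genes, which lie downstream of the receptors, were called lower at each day in each genotype in AA+2i, which contains the MEK inhibitor. In WT, 8 fell and 0 rose by day 2, and 12 fell and 0 rose by day 10. In KO, 9 fell and 0 rose by day 2, and 8 fell and 0 rose by day 10. Over the same comparisons 1.98, 13.1, 2.37 and 5.19% of all genes were called lower. Median log2 changes of the list were -1.24 and -2.13 in WT and -0.90 and -0.68 in KO. The blocked fit called 14 lower and 1 higher in WT and 13 lower and 1 higher in KO at day 2, and 15 lower and 1 higher in WT and 11 lower and 1 higher in KO at day 10. Il17rd, a membrane inhibitor of FGF signalling, read higher after day 0, with means of 19.9, 45.6 and 40.2 CPM in WT and 15.0, 29.9 and 29.5 CPM in KO at days 0, 2 and 10, and was not called without the block. Dusp6, the ERK phosphatase, read 88.0 and 93.5 CPM in WT at day 0, 11.03 and 11.7 CPM at day 2, and 5.29 and 5.05 CPM at day 10. In KO, Dusp6 read 99.9 and 80.1 CPM, then 9.93 and 9.54 CPM, then 7.50 and 9.27 CPM, so it fell in both genotypes without overlap.

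At day 10 the feedback genes were higher in KO than in WT in 11 cases and lower in 1, with a median log2 difference of 0.83, against 12.4% of all genes called higher and 19.9% called lower. The day 10 interaction called 5 of them higher and 1 lower, against 6.35 and 6.2% of all genes, and the blocked fit 14 higher and 1 lower, against 44.6% of all genes called. Etv4, an ERK-induced transcription factor, read 114 and 118 CPM in WT at day 0, 24.8 and 24.7 CPM at day 2, and 1.76 and 1.94 CPM at day 10. In KO it read 138 and 156 CPM at day 0, 38.6 and 36.6 CPM at day 2, and 45.1 and 37.5 CPM at day 10. Etv4 thus fell between days 2 and 10 in WT (-3.76 ± 0.18, adjusted p = 2.54e-05), and its day 10 response differed between genotypes (4.13 ± 0.23, adjusted p = 0.000128). Etv1 (2.00 ± 0.22, adjusted p = 0.000319) and Spred1 (1.12 ± 0.17, adjusted p = 0.00130) were also higher in KO at day 10. Spry1, a Sprouty inhibitor, was the exception, at 7.27 and 7.89 CPM in WT and 1.44 and 2.60 CPM in KO (-1.85 ± 0.35, adjusted p = 0.00387). At day 10, Fgf4 was thus lower in the genotype in which most called feedback genes were higher.

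**Figure D4:**
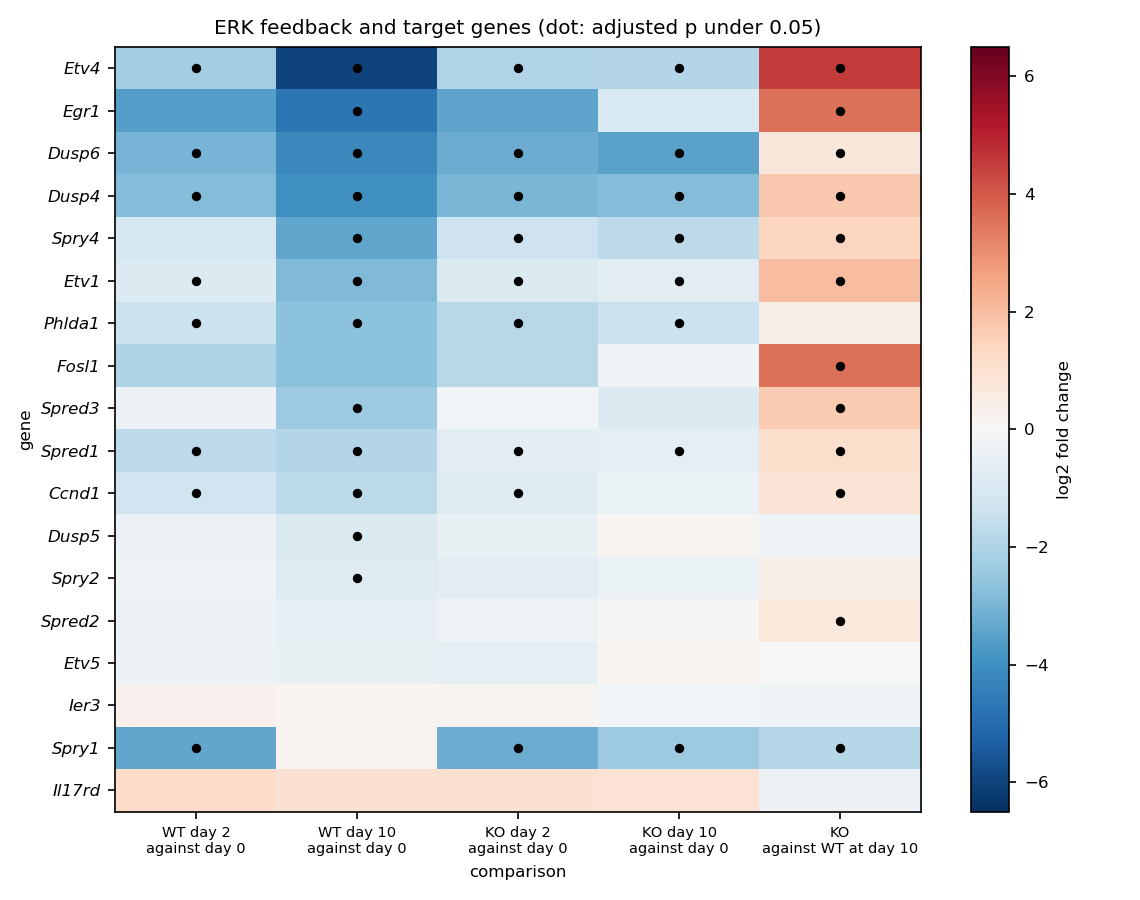
Log2 fold change of the 18 ERK feedback and target genes (rows) in 5 comparisons (columns), in red where higher and blue where lower, with a dot at an adjusted p under 0.05. Every dotted cell of the day columns is blue, while some undotted ones, such as Il17rd, are red, and 11 of 12 dotted cells of KO against WT at day 10 are red.

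The RNA-binding proteins Esrp1 and Esrp2, which direct the epithelial splice form of FGFR2, were on a list of 4 splicing regulators. Esrp1 read 26.8 and 35.6 CPM in WT at day 0 and 9.29 and 13.2 CPM in KO at day 0 (-1.42 ± 0.19, adjusted p = 0.00228). It rose by day 2 in WT (0.90 ± 0.18, adjusted p = 0.0266) and in KO (1.44 ± 0.19, adjusted p = 0.00286), reached 43.0 and 37.8 CPM in KO at day 10, and stood at 31.0 and 28.3 CPM in WT at day 10. Esrp2 was lower in KO than in WT at days 2 and 10 (-1.10 ± 0.21, adjusted p = 0.0115, and -0.99 ± 0.21, adjusted p = 0.00699). Rbfox2 and Ptbp1, also on the list, were called in no comparison without the block, but the blocked fit called more of the list. In KO against WT at day 10 it called 2 higher and 1 lower of the 4, against 63.8% of all genes called.

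Genes whose pattern over the 6 group means was most like that of a called member were found by the root mean square difference of centred log2 CPM, among 10672 genes. For Fgf4 the nearest were Plekhh1 (0.20), Eng (0.28) and Wipi1 (0.28). For Fgf10 they were Cpxm1 (0.12), Ston2 (0.20) and Ankrd35 (0.22). For Fgf17 they were Smad7 (0.12), Zfp710 (0.15) and St14 (0.25). For Fgfr2 they were Epha4 (0.22), Stx3 (0.23) and Gjb5 (0.23), and for Fgfr4 Gyltl1b (0.30), Igtp (0.31) and Rsad2 (0.33). Likeness of pattern over 6 groups is a description only. Fgf17 held 0 to 2 counts in each group other than WT day 10. The prior count of 2 added before the log therefore sets most of its pattern, and its near matches may reflect that floor. Patterns of Fgf10 and Fgfr4 also rest on few counts outside WT day 10. Plekhh1 read 148 and 154 CPM in WT at day 10 and 30.0 and 26.8 CPM in KO at day 10, but 24.3 CPM in ESCs, where Fgf4 was high.

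Several lists of cell type markers also differed between the genotypes at day 10, where 19.9% of all genes were called lower and 12.4% higher in KO. The 12 naive pluripotency markers summed to 1090 and 2317 CPM in WT and 1220 and 2791 CPM in KO at day 0, and to 1525 CPM in ESCs. From day 0 to day 10, 10 rose and 1 fell in WT, against 21 and 13.1% of all genes. In KO 9 rose and 0 fell, against 9.93 and 5.19%. At day 10 they summed to 2685 and 2899 CPM in WT and 1280 and 1456 CPM in KO, and 10 of 12 were called lower in KO, with none at 0 in either. The 8 trophectoderm markers found in the tables summed to 71.2 and 80.5 CPM in WT and 16.9 and 15.5 CPM in KO, with 6 of 7 tested called lower in KO. Of these, Elf5 was at 0 in WT library B and in both KO libraries. The 9 primitive endoderm markers summed to 176 and 152 CPM in WT and 64.9 and 48.7 CPM in KO, with 4 of 7 tested called lower and Sox17 at 0 in both KO libraries. The 5 keratinocyte-like markers summed to 31.7 and 84.4 CPM in WT and 1.80 and 0.849 CPM in KO. Krt5 was at 0 in WT library B and in both KO libraries, and Krt15 and Krt6a were also at 0 in KO library B. The 7 primed epiblast markers, whose cells use Fgf5 and Fgf8, summed to 157 and 160 CPM in WT, 63.1 and 59.2 CPM in KO and 667 CPM in ESCs, with 4 of 6 tested called lower in KO. Of these, Cer1 was at 0 in WT library B and KO library A, and Sox3 in KO library B. The 12 fibroblast markers summed to 3658 and 3139 CPM in WT and 2958 and 2696 CPM in KO at day 10 and to 1649 CPM in ESCs, and 5 were called lower and 1 higher in KO. Most of that sum was Fn1, with means of 3020 CPM in WT, 1741 CPM in KO and 1004 CPM in ESCs, while Vim read 278 CPM in WT, 1065 CPM in KO and 335 CPM in ESCs. Col1a1 read 63.5 CPM in WT and 0.25 CPM in KO, with Col1a1, Col1a2 and Postn at 0 in KO library B. The part of these cell types in the results above was not tested.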

How the data were processed

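Per the submitters' processing notes, the authors aligned the reads with Bowtie2 to mm9 and counted genes with RSEM; their versions and the annotation are not named in the labels or file headers. The deposited tables give RSEM expected counts per gene, which share a read between the transcripts it fits, and TPM made by the authors, per the file headers. Between 35.0 and 43.8% of expected counts lay more than 0.005 from a whole number.

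Expected counts were rounded and fitted in edgeR 4.0.16 (R 4.3.3) with the quasi-likelihood test: filterByExpr, TMM factors (0.922 to 1.064), 6 groups, 12 libraries, 6 residual degrees of freedom, Benjamini-Hochberg adjustment over 14324 genes. The standard error is the log2 fold change divided by the root of F. The fit was tested on simulated data. The ESC library entered no test. Levels in CPM use plain library totals, and no sample was dropped or imputed.

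Replicate letters were checked over the 6 pairs of groups of days 0 and 2: their A minus B differences correlated at 0.741 to 0.812, against -0.061 to 0.049 in the 9 pairs that include a day 10 group. The letters therefore pair the libraries of days 0 and 2, from the data and not from the labels. The difference A minus B correlated with log transcript length at -0.510 to -0.385 on those days and at 0.022 and 0.044 at day 10. The blocked fit codes the letter with opposite signs for A and B at days 0 and 2 and as 0 at day 10.

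The members and lists were chosen with earlier results of these data known. Named genes are all 10 members, up to 4 per list and comparison with the lowest adjusted p (with Spry1, Klb, Il17rd, the fibroblast markers and further called genes named after their values were seen), and the 3 nearest patterns of at least 5 CPM with a prior count of 2. Alternatives were DESeq2 1.42.0, other scalings, no filter, letter blocks, only the libraries compared, each library left out, and, added after seeing the data, a loess correction for transcript length (span 0.5). The neural marker list is not reported here.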

Additional observations from a re-analysis of the deposited data

Results flagged for a closer look

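Fgf4 was the member whose change from day 0 to day 10 differed between genotypes by a test of the difference itself. The interaction was -2.67 on the log2 scale (SE 0.32, edgeR adjusted p = 0.00135), with a rise of 1.46 in WT and a change of -1.21 in KO. Both WT day 10 libraries (269 and 314 CPM) lay above both WT day 0 libraries (92.0 and 111 CPM), and both KO day 10 libraries (50.1 and 57.5 CPM) lay below both KO day 0 libraries (95.7 and 144 CPM). Leaving out any 1 of the 12 libraries left the interaction between -2.86 and -2.36, with adjusted p-values of 0.00170 to 0.0144.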

How the results depend on the processing

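Counts of members called were as follows where they changed by more than 1.5 times. WT day 2 against day 0 had 0 calls, and 2 with DESeq2, 2 with the replicate block in all groups, 5 with the replicate block at days 0 and 2, 2 with the length correction and 5 with both. KO day 2 against day 0 had 1, and 2 with each of these 5 settings, and 0 with only the libraries compared. KO day 10 against day 0 had 1, and 2 with DESeq2, 3 with the replicate block, 4 with the block at days 0 and 2, and 4 with length correction and that block. KO day 10 against day 2 had 0, and 1, 2 and 2 with these 3 blocked fits. KO against WT at day 0 had 0, and 1 with DESeq2, 1 and 1 with the replicate blocks, 1 with the length correction and 2 with both. At day 2 it had 0, and 1 with DESeq2, 2 and 3 with the replicate blocks, 1 with the length correction and 3 with both. The day 2 interaction had 0, and 1 with the block at days 0 and 2, with or without length correction. The day 10 interaction had 1, and 3 and 4. WT day 10 against day 2 had 4, and 6 with the block at days 0 and 2 and 7 with length correction added.

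Leaving out 1 library gave 0 to 0 calls for WT day 2 against day 0, 4 to 6 for WT day 10 against day 0, 1 to 4 for WT day 10 against day 2, 1 to 1 for KO day 2 against day 0, 0 to 2 for KO day 10 against day 0, 0 to 0 for KO day 10 against day 2, 0 to 0, 0 to 1 and 2 to 5 for KO against WT at days 0, 2 and 10, and 0 to 0 and 1 to 1 for the interactions. Of 525 member values with 1 library left out, 6 changed sign, none of them called, each without a library B. Their ranges were -0.041 to 0.93 (Fgfr1, WT day 2 against day 0), -0.72 to 0.15 (Fgfr1, WT day 10 against day 0), -0.050 to 1.10 (Fgfr1, day 10 interaction), -0.58 to 0.079 and -1.17 to 0.023 (Fgfr3, day 10 against day 2 in WT and KO) and -0.0067 to 0.51 (Fgf4, KO against WT at day 0). Of 392 member values under the other settings, 0 changed sign, 5 lost and 78 gained a call. Both sets, of 525 and 392 values, cover only the 44 pairs of a member and a comparison called in at least 1 setting. Pairs never called are left out of them. Scaling moved the median of all genes by under 0.1 on the log2 scale. Members under 10 counts a library are limited by depth.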
